A study of Mus musculus with 9 samples.

Results

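The genes described here encode the proteins of the mitochondrial ribosome, taken as every gene of the mouse count table whose symbol begins with Mrpl or Mrps followed by a number. This rule found 77 of 15384 genes. They are 50 proteins of the large subunit, 26 of the small subunit and Mrps36, which keeps a ribosomal name although its product is a subunit of the 2-oxoglutarate dehydrogenase complex. Mrps18a and Mrps30 carry small-subunit names but are built into the large subunit and were counted there. Of the 76 ribosomal members, 46 have a bacterial counterpart (30 large, 16 small) and 30 are specific to mitochondria (20 large, 10 small). The members lie on 17 chromosomes, with 11 on chromosome 11. Mrpl53 was not analysed here.

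The RNA-Seq libraries came from MyC-CaP, a mouse prostate cancer line derived from a tumor that overexpressed human MYC in the prostate, kept without serum and calcium before treatment. In all, 3 groups of 3 biological replicates were used: time 0 (ASPN_0hr), and 12 hours (ASPN_12hr) and 24 hours (ASPN_24hr) with 100 ng/mL recombinant mouse asporin (ASPN), a secreted matrix proteoglycan of fibroblasts. In the labels all 9 libraries, also those of time 0, are ASPN-treated, and no library of cells kept for 12 or 24 hours without ASPN is among them, so ASPN and hours in culture cannot be told apart. The question was how this gene set changed over the time course.

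Mitochondrial ribosomes translate the few mRNAs of the mitochondrial genome, all of which encode subunits of the respiratory chain and ATP synthase. Their RNA is mitochondrial, but all of their proteins are encoded in the nucleus, translated on cytosolic ribosomes and imported. The small subunit binds the mRNA and decodes it. The large subunit forms the peptide bonds and releases the nascent chain through an exit tunnel that faces the inner membrane.

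Total counts were 41881191 to 52993821 per library. Levels are given as CPM (counts scaled to library size) with TMM factors, which were 1.04 to 1.07 at 0 and 12 hours and 0.899 to 0.914 at 24 hours. The luminal keratin gene Krt8 was at 25.5 CPM at time 0, whereas Krt18 was at 0.234, Cdh1 at 0.0330 and Epcam at 0.00692 CPM, so these defining epithelial markers were near absent. Of the fibroblast, immune and endothelial markers, 4, 2 and 2 were in the table, with summed means over the 3 times of 9.76 to 13.5, 0.485 to 0.641 and 0.0617 to 0.102 CPM. Cdh5, an endothelial marker, was at 0 at time 0 and at 24 hours, and nearly all of the fibroblast sum was Pdgfra. The fibroblast sum was 13.5 CPM at time 0 and 9.76 CPM at 24 hours, with Pdgfra at 13.2 and 9.25 CPM without overlap (-0.51, edgeR adjusted p = 0.00013), lower by less than 1.5-fold. Dcn passed the call in the other direction (0.181 to 0.418 CPM) on 7 to 29 counts per library, and its libraries overlapped. The part of these shifts in the results was not tested. Counts of bulk RNA cannot tell fewer cells from less RNA per cell.

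All 77 members were well covered, with 305 to 8373 counts in a library, and all passed the filter on low counts in each comparison. The median coefficient of variation of a member over 3 replicates was 3.52% at time 0, 2.87% at 12 hours and 4.03% at 24 hours. Together the members took 0.302%, 0.308% and 0.314% of all counts in the libraries of time 0, 0.301%, 0.297% and 0.296% at 12 hours, and 0.312%, 0.312% and 0.318% at 24 hours. The shares at 24 hours overlapped with those of time 0. Within its time, replicate 3 of 24 hours was the highest library for 45 of 77 members and replicate 3 of time 0 for 40.

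Although the proteins are assembled into a single particle, their mRNAs differed widely in level per length (CPM per kb of exon). At time 0 the median was 13.0 CPM per kb, and the 90th percentile was 7.28 times the 10th. The highest member was Mrps21, a small-subunit protein with a bacterial counterpart, at 76.3 ± 2.43 CPM per kb (SD, n = 3). It was followed by 4 large-subunit genes: Mrpl34 at 70.5 ± 2.28, Mrpl12, whose product forms the stalk that recruits translation factors, at 62.2 ± 1.06, Mrpl54 at 46.2 ± 0.963 and Mrpl45 at 41.3 ± 1.197 CPM per kb. The lowest were Mrpl47 at 3.07 ± 0.176, Mrpl23 at 3.05 ± 0.139 and Mrps10 at 2.61 ± 0.114 CPM per kb, of which Mrpl47 and Mrpl23 did not differ beyond their spread.

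**Figure D1:**
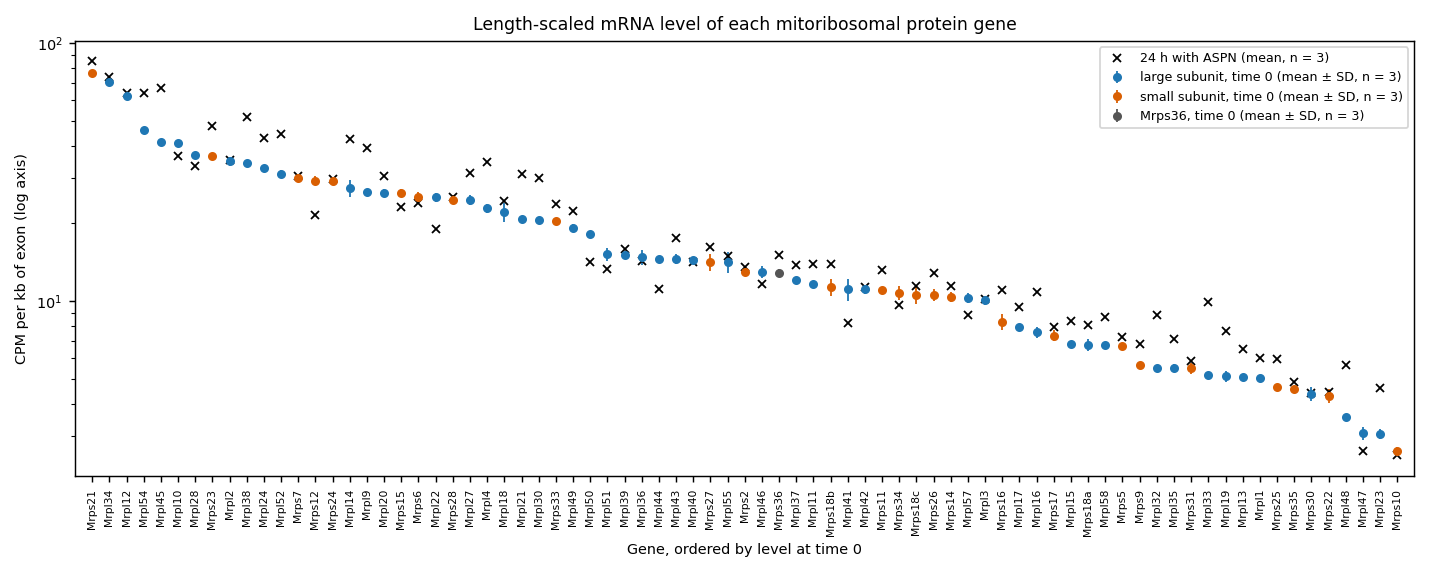
Length-scaled mRNA level (CPM per kb of exon, log axis) of the 77 members, ordered by the mean at time 0, with SD of 3 libraries (blue, large subunit; orange, small subunit; grey, Mrps36) and the mean at 24 hours as crosses. Levels run from Mrps21 at 76.3 to Mrps10 at 2.61 CPM per kb, and the crosses stay near the points relative to that range.

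This order was nearly the same at 24 hours, with Spearman's rho of 0.970 between the levels of the 77 members at 0 and 24 hours, which share gene lengths. The medians of large and small subunit genes were 14.6 and 10.9 CPM per kb at time 0. With the longest transcript in place of all exonic bases, Mrps21 was again the highest and Mrpl23 the lowest, and Mrpl45 moved from rank 5 to 9.

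At 12 hours every member was within 1.5-fold of time 0. None was called higher or lower by edgeR's quasi-likelihood test, for which a call needed both a change of 1.5-fold or more and a p adjusted by Benjamini-Hochberg of at most 0.05, where 1.5% of all 11410 genes tested were called higher and 0.0964% lower. By adjusted p alone, 2 members were higher (6.85% of all genes) and 1 was lower (3.47% of all genes). The median log2 fold change of the members was -0.03, against -0.00 for all genes, and the members ranged from -0.19 to 0.25. Libraries of the 2 times did not overlap for 4 members that were higher and 19 that were lower, together 29.9% of members against 27.0% of all genes. By direction these were 5.2% of members higher and 24.7% lower, against 13.4% and 13.6% of all genes. DESeq2 and limma-voom also called 0 members.

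The 3 members past the adjusted p at 12 hours were Mrpl33, Mrpl4 and Mrps6. Mrpl33, a small protein of the large subunit, was at 36.8, 38.1 and 38.1 CPM at time 0 and at 45.1, 44.9 and 43.4 CPM after 12 hours, which is 0.25 ± 0.04 higher on the log2 scale (SE, edgeR adjusted p = 0.00052). Mrpl4, whose product lines the exit tunnel, was at 58.1, 59.3 and 62.7 CPM at time 0 and at 66.9, 68.1 and 63.7 CPM at 12 hours (0.15 ± 0.04, edgeR adjusted p = 0.0245). For both genes every library at 12 hours was above every library of time 0. Mrps6 of the small subunit was at 40.4, 36.9 and 39.1 CPM at time 0 and at 34.8, 34.8 and 32.1 CPM at 12 hours (-0.19 ± 0.05, edgeR adjusted p = 0.0183), again without overlap. Of the exonic bases of Mrps6, 10.4% are shared with Slc5a3 and 19.9% with Gm49711, both on the same strand, and reads in them cannot be told apart. The next members by size were not past the threshold: Mrps16 was highest after these at 0.06, and Mrpl43 and Mrpl40 lowest at -0.16 and -0.15.

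At 24 hours 8 members had risen and none had fallen by the rule of adjusted p and fold. These 8 are 10.4% of the members, against 12.0% of 11444 genes called higher and 16.8% called lower in the whole table. DESeq2 and RLE factors each called 10 members higher (Mrpl19 and Mrpl21 in addition), upper-quartile factors 11 (also Mrpl9) and limma-voom 8. All 8 of the edgeR calls were large-subunit genes: Mrpl33, Mrpl45, Mrpl48, Mrpl32, Mrpl14, Mrpl4, Mrpl23 and Mrpl38. By adjusted p alone 42 members were higher (54.5%, against 34.4% of all genes) and 11 were lower (14.3%, against 36.5% of all genes). The members' median log2 fold change was 0.20 with quartiles of 0.03 and 0.37, and that of all genes was -0.02 with quartiles of -0.42 and 0.34. Of the 77 members, 69 stayed within 1.5-fold of time 0 and 42 within 1.2-fold. The libraries of the 2 times did not overlap for 44 members that were higher and 12 that were lower, which is 72.7% of members against 73.9% of all genes. By direction these were 57.1% of members higher and 15.6% lower, against 35.6% and 38.3% of all genes, with CPM scaled by TMM.

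**Figure D2:**
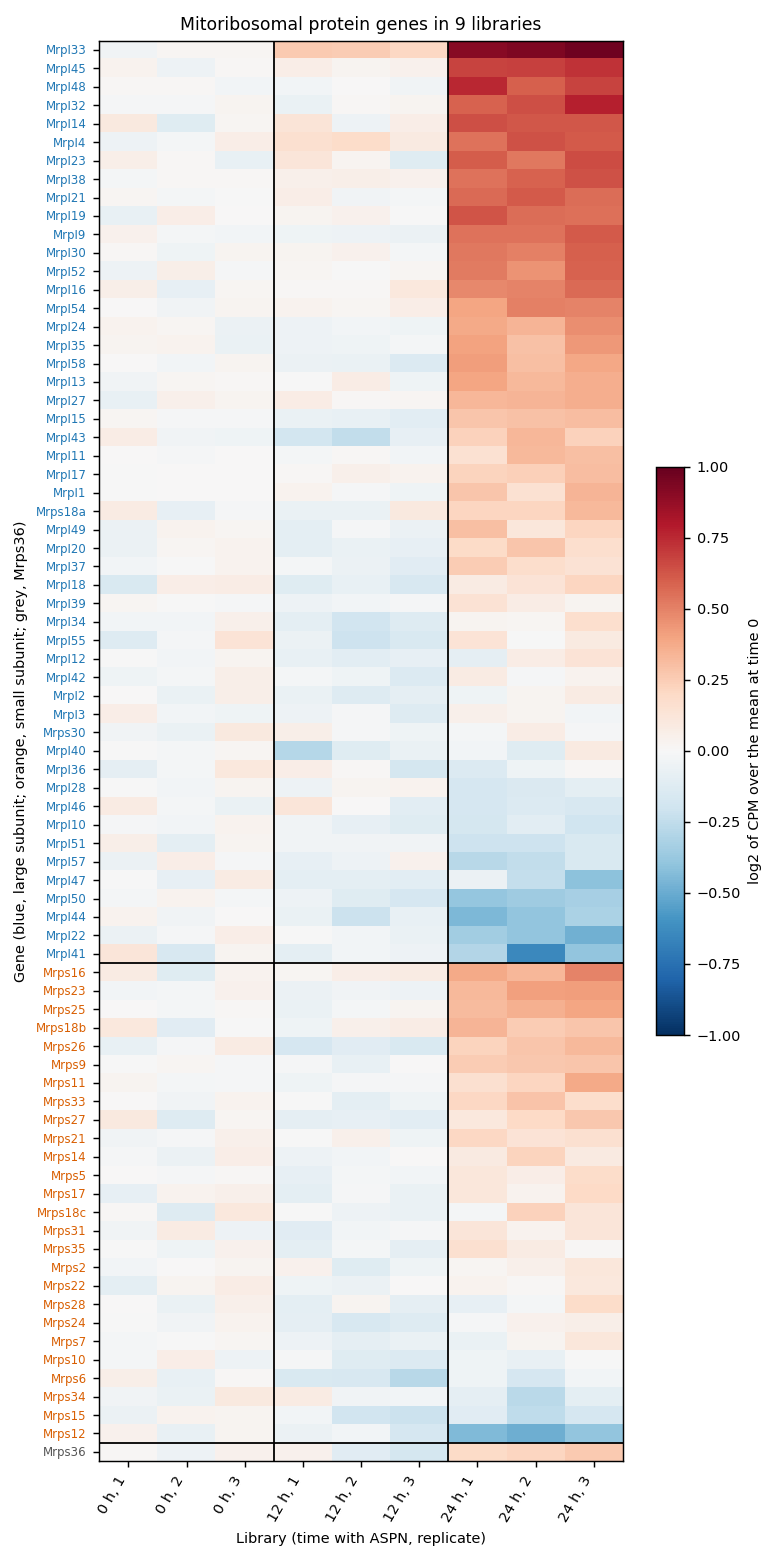
Log2 of each library's CPM over the gene's mean at time 0, for the 77 members (rows; large subunit, small subunit and Mrps36 from top to bottom, each ordered by the change at 24 hours) in the 9 libraries (columns). The 3 libraries of 12 hours are near those of time 0 for most genes, with Mrpl33 as an exception, and the 3 libraries of 24 hours resemble each other, from Mrpl33 at the top (log2 fold change 0.95) to Mrpl41 (-0.43) and Mrps12 (-0.44).

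Mrpl33 had the largest change of the members. It was at 36.8, 38.1 and 38.1 CPM at time 0 and at 70.9, 72.0 and 74.0 CPM at 24 hours, 1.93-fold higher (log2 fold change 0.95 ± 0.05, edgeR adjusted p = 1.1e-09). The libraries of 12 hours lay between those of the other times, with no overlap on either side. The gene lies at chr5:31596935-31664384 on the plus strand of GRCm38, and 3.56% of its exonic bases are shared with another annotated transcript.

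Mrpl45 encodes a protein at the tunnel exit that ties the ribosome to the inner membrane. Its level was 109.9, 103.9 and 108.2 CPM at time 0 and 171.9, 172.3 and 176.7 CPM at 24 hours (0.70 ± 0.04, edgeR adjusted p = 5.1e-09). Mrpl48, of the central protuberance on top of the large subunit, went from 29.1, 29.1 and 28.4 to 48.7, 43.6 and 46.2 CPM (0.68 ± 0.06, edgeR adjusted p = 1.2e-07). At 12 hours the 2 genes were at 0.05 and -0.02, neither past the test, and in both every library of 24 hours stood above all 6 earlier ones.

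Mrpl32, whose product is trimmed by a mitochondrial protease before assembly, was at 27.2, 27.2 and 28.0 CPM at time 0 and at 41.3, 42.9 and 47.1 CPM at 24 hours (0.68 ± 0.06, edgeR adjusted p = 2.2e-07). Mrpl14, which sits on the face of the large subunit that meets the small one, went from 27.8, 23.9 and 26.3 to 40.7, 39.9 and 39.9 CPM (0.63 ± 0.06, edgeR adjusted p = 6.2e-07). Groups did not overlap for either gene. Of the exonic bases of Mrpl14 and Mrpl48, 11.2% and 8.68% are shared with Tmem63b and Rab6a on the opposite strand, and at 24 hours Tmem63b was at 0.50 (edgeR adjusted p = 4.2e-07) and Rab6a at 0.63 (edgeR adjusted p = 1.6e-08).

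The last 3 were close to the fold threshold. Mrpl4 was at 87.2, 93.2 and 92.0 CPM at 24 hours (0.60 ± 0.05), Mrpl23, a protein at the mouth of the exit tunnel, went from 15.5, 15.0 and 14.2 to 22.6, 21.5 and 23.4 CPM (0.60 ± 0.07), and Mrpl38 of the central protuberance went from 86.0, 88.0 and 87.9 to 127.3, 131.6 and 135.6 CPM (0.60 ± 0.04). Their adjusted p-values by edgeR were 8.5e-08, 3.3e-06 and 2.8e-08. Just below the fold threshold were Mrpl21 and Mrpl19 (both 0.58) and Mrpl9 (0.57). Leaving out 1 library took Mrpl14 (0.58 without replicate 2 of time 0), Mrpl4 (0.58 without replicate 2 of 24 hours), Mrpl23 (0.58 without replicate 3 of time 0, 0.57 without replicate 3 of 24 hours) and Mrpl38 (0.57 without replicate 3 of 24 hours) below the threshold of 1.5-fold.

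At the other end were Mrps12, Mrpl41 and Mrpl22, which were lower by adjusted p but by less than 1.5-fold. Mrps12 encodes a protein of the decoding center of the small subunit, and its level was 31.5, 29.0 and 31.0 CPM at time 0 and 22.5, 21.7 and 23.2 CPM at 24 hours (-0.44 ± 0.06, edgeR adjusted p = 1.7e-05). Mrpl41, specific to mitochondria, went from 10.7, 8.84 and 10.03 to 8.06, 6.32 and 7.49 CPM (-0.43 ± 0.11, edgeR adjusted p = 0.00363). Mrpl22, which lines the exit tunnel, went from 23.8, 24.6 and 25.9 to 19.5, 18.9 and 17.8 CPM (-0.40 ± 0.06, edgeR adjusted p = 8.2e-05). All libraries of 24 hours were below all libraries of time 0 for these 3 genes.

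The direction given to the set as a whole at 24 hours depended on the scaling. With total counts in place of TMM factors the median of all genes moved from -0.02 to -0.24 and that of the members from 0.20 to -0.02, so the distance between the medians stayed at 0.21, and 1 member (Mrpl33) was called higher and 4 (Mrpl22, Mrpl41, Mrpl44 and Mrps12) lower, beside 698 of all genes higher and 3008 lower. By adjusted p alone the balance then turned, with 22 members higher and 28 lower. With a correction for the length and GC content of the longest transcript the members' median was 0.08 and the distance 0.05. Then 6 were called higher and 3 lower (1456 and 1454 of all genes), and 33 were higher and 18 lower by adjusted p alone. This correction ended the calls of Mrpl14, Mrpl32 and Mrpl38, added Mrpl19 among the higher and called Mrpl22, Mrpl41 and Mrps12 lower. Members had a median exonic length of 2533 bp against 4125 bp for all genes, and a median GC content of 49.7% against 50%. This exonic length counts all exonic bases and is not the length used in the correction.

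The spread among members could also be read within a library, where no scaling factor enters. The log2 ratio of Mrpl33 to Mrps12 counts within a library was 0.22, 0.40 and 0.30 at time 0, 0.63, 0.58 and 0.68 at 12 hours and 1.66, 1.73 and 1.67 at 24 hours. The ratio thus differed by 1.38 between 0 and 24 hours without overlap. These 2 genes were chosen as the extremes, so the difference is a description.

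The subunits had overlapping distributions. The median log2 fold change at 24 hours was 0.26 over 50 large-subunit genes, with 8 called higher, and 0.12 over 26 small-subunit genes, with none called in either direction. By adjusted p alone 29 large-subunit genes were higher and 9 lower, and 12 small-subunit genes were higher and 2 lower. Of all genes 12.0% were called higher and 16.8% lower, and by adjusted p alone 34.4% were higher and 36.5% lower. The small-subunit genes ranged from -0.44 (Mrps12) to 0.41 (Mrps16), and the large-subunit genes from -0.43 (Mrpl41) to 0.95 (Mrpl33). The summed level of the large subunit was 2018 ± 20 CPM at time 0, 1989 ± 15.2 at 12 hours and 2472 ± 41.5 at 24 hours, while the small subunit summed to 888 ± 17.8, 852 ± 4.66 and 967 ± 21.5 (SD, n = 3). The direction for the small subunit depended on the TMM factors. Its share of all counts was 0.0915%, 0.0933% and 0.0963% at time 0 and lower at 24 hours, at 0.0872%, 0.0871% and 0.0892%. The share of the large subunit was 0.209%, 0.213% and 0.216% at time 0 and 0.223%, 0.223% and 0.227% at 24 hours. Members with a bacterial counterpart and members specific to mitochondria had medians of 0.16 and 0.20, with 5 and 3 called higher. No test of a difference between these classes was made.

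**Figure D3:**
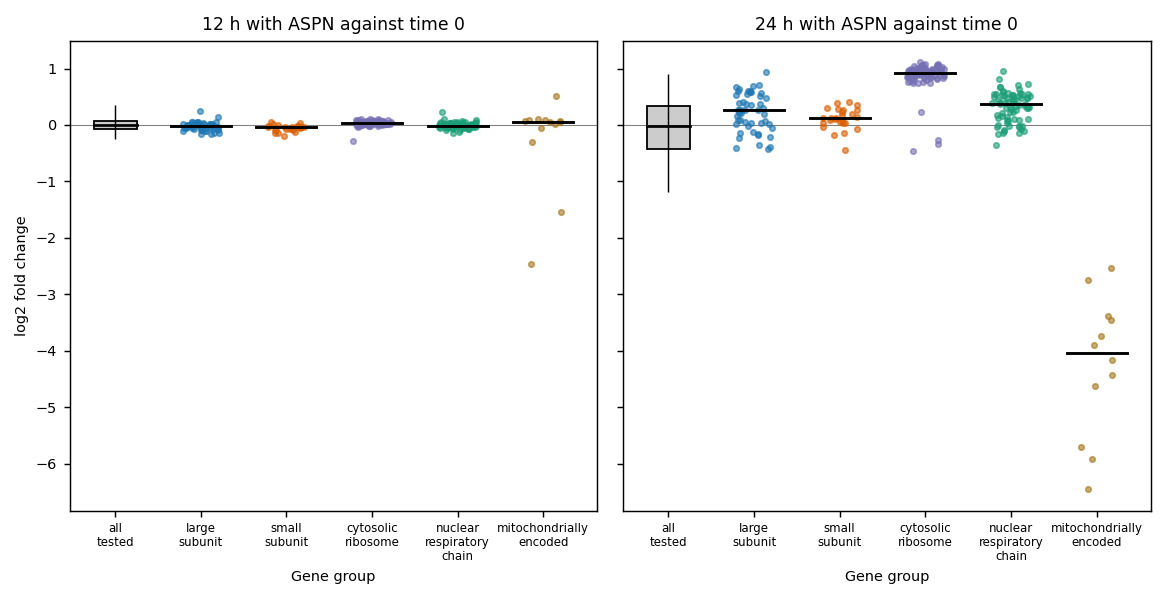
Log2 fold change at 12 hours (left) and 24 hours (right) against time 0. The box and line at the left of each panel give the quartiles and the 5th to 95th percentile of all genes tested, points are single genes and black lines are medians, which at 24 hours were 0.26 (large subunit), 0.12 (small subunit), 0.92 (cytosolic ribosome), 0.37 (nuclear respiratory chain) and -4.03 (mitochondrially encoded).

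Within the large subunit, genes of 1 structural region did not share a direction. The calls per region are few and are to be read against 12.0% of all genes called higher and 16.8% called lower. Of 7 proteins around the exit of the tunnel, 2 were called higher (Mrpl45 and Mrpl23) and none lower. In that region Mrpl24 was at 0.40 and Mrpl39 at 0.09, while Mrpl22, Mrpl44 and Mrpl47 were at -0.40, -0.38 and -0.23. Of 6 central protuberance proteins 2 were called higher (Mrpl48 and Mrpl38), and Mrpl46 was the lowest at -0.15. Of 4 stalk proteins none was called: Mrpl11 and Mrpl1 were at 0.27 and 0.26, Mrpl12 at 0.05 and Mrpl10 at -0.15.

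The 3 Mrps18 genes are paralogs whose products occupy different sites in the particle, Mrps18c in the place of the bacterial protein. Mrps18a was at 26.4, 23.6 and 24.8 CPM at time 0 and at 29.0, 29.0 and 31.2 CPM at 24 hours (0.26 ± 0.06, edgeR adjusted p = 0.00198). Mrps18b went from 25.5, 21.9 and 23.7 to 30.0, 28.3 and 28.7 CPM (0.30 ± 0.07, edgeR adjusted p = 0.00123), and in both genes the groups did not overlap. Mrps18c was at 11.46, 10.4 and 12.3 CPM at time 0 and at 11.2, 13.4 and 12.4 CPM at 24 hours (0.12 ± 0.09, edgeR adjusted p = 0.263), with overlap. At 12 hours all 3 were within 0.04 of time 0 on the log2 scale. Mrps36, which is no ribosomal protein, was at 16.5, 15.8 and 16.9 CPM at time 0 and 18.8, 19.1 and 19.7 CPM at 24 hours (0.23).

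Between 12 and 24 hours 8 members rose and none fell, against 10.4% of 11394 genes called higher and 15.3% lower. They were Mrpl33 (0.72 ± 0.04), Mrpl48 (0.72 ± 0.05), Mrpl32 (0.71 ± 0.06), Mrpl45 (0.67 ± 0.03), Mrpl9 (0.64 ± 0.04), Mrpl14 (0.60 ± 0.06), Mrpl23 (0.60 ± 0.07) and Mrpl21 (0.59 ± 0.04), with edgeR adjusted p-values from 1.6e-09 (Mrpl45) to 5.0e-06 (Mrpl23). By adjusted p alone 55 members were higher (35.7% of all genes) and 8 lower (35.6% of all genes). The members' median was 0.28 and that of all genes 0.00, and the groups did not overlap for 63 members, 81.8% against 73.9% of all genes (68.8% of members higher and 13.0% lower, against 35.5% and 38.5% of all genes). The lowest were again Mrpl41 (-0.36), Mrpl22 (-0.35) and Mrps12 (-0.34). This comparison shares the libraries of 24 hours with the one above. The members' median was 0.06 with total counts (all genes -0.22, distance 0.27 as before) and 0.14 with the length and GC correction (all genes 0.05, distance 0.09). With total counts none of the 8 was called, the fit of all 9 libraries lost Mrpl14, Mrpl21 and Mrpl23, and the length and GC correction lost Mrpl14, Mrpl21 and Mrpl9 while adding Mrpl19 and Mrps26 as higher and Mrpl22 and Mrpl41 as lower. Leaving out a library ended the calls of Mrpl14 (0.55 without replicate 2 of 12 hours), Mrpl23 (0.54 without replicate 3 of 12 hours and 0.57 without replicate 3 of 24 hours) and Mrpl21 (0.57 and 0.58 without replicates 2 and 3 of 12 hours, and 0.58 without replicate 2 of 24 hours).

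Another 5 mitoribosomal proteins have names outside the Mrpl and Mrps series. None was called at 24 hours. Dap3, a GTP-binding protein of the small subunit head, had 141.8 CPM at time 0 and 169.7 CPM at 24 hours (0.26, edgeR adjusted p = 6.8e-05), Chchd1 was at 0.30 (edgeR adjusted p = 0.00063), Aurkaip1 at 0.18 (edgeR adjusted p = 0.00348) and Ptcd3 at 0.07 (edgeR adjusted p = 0.229). Gadd45gip1, a large-subunit protein, was at -0.16 (edgeR adjusted p = 0.0427). Scaling turned 2 of these directions: with total counts Aurkaip1 was at -0.04 and Ptcd3 at -0.16. Ptcd3 was also negative, at -0.06, with the length and GC correction.

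Factors that assemble and run mitochondrial ribosomes were taken from lists, and their counts are to be read against the 12.0% of all genes called higher and 16.8% called lower. Of 26 assembly factors 1 was called higher at 24 hours and 4 lower, with a median of -0.12. Tfb1m, which methylates the small ribosomal RNA, was at 0.82, and Mrm2 and Mrm3, methyltransferases of the large ribosomal RNA, at -1.62 and -0.73, with Ybey at -1.25 and Mettl17 at -0.75. Of 15 translation factors 1 was called, the deformylase gene Pdf at -1.44 with under 1 CPM (0.645 at time 0 and 0.239 at 24 hours), and the median was 0.07. By adjusted p alone 6 of the 15 were higher, up to the elongation factor gene Gfm1 (0.58), and 5 were lower, among them Gfm2 and Lrpprc (both -0.31). Of 17 mitochondrial aminoacyl-tRNA synthetases 2 were called higher, Lars2 at 2.20 (289 to 1324 CPM) and Wars2 at 0.72, and 3 lower, Mars2 at -1.86, Pars2 at -1.67 and Aars2 at -0.64. The 24-hour libraries of Lars2 differed widely, at 2004, 814 and 1154 CPM.

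Among 11 transcription regulators of mitochondrial and ribosomal genes, 3 were called lower at 24 hours: Pprc1, a coactivator related to PGC-1α, at -1.55, Myc at -0.98 (81.1 to 41.1 CPM) and Ppargc1a, the gene of PGC-1α, at -0.72. Gabpa, an ETS factor long studied at such promoters, was at 0.38 and Nrf1 at 0.12, neither past the fold threshold. Any part of these genes in the members' changes was not tested. Myc here is the gene of the mouse genome, so its values do not give the level of human MYC in this line.

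The mRNAs on which mitochondrial ribosomes act, and those of the cytosolic ribosome, moved much further than the members. All 12 mitochondrially encoded genes tested were called lower at 24 hours, and their summed level went from 25205 ± 722 CPM at time 0 to 1761 ± 514 CPM (SD, n = 3). It stood at 4.90%, 7.08% and 8.97% of the mean at time 0 in the 3 libraries. At 12 hours 1 of 13 was called, mt-Atp6 (-2.46), whose groups overlapped: it was at 4.15, 4.03 and 63.2 CPM at time 0 and at 4.90, 4.003 and 4.23 CPM at 12 hours, so replicate 3 of time 0 alone set it apart. Of 79 cytosolic ribosomal protein genes tested, 75 were called higher at 24 hours with a median of 0.92. Of 74 nuclear genes of the respiratory chain and ATP synthase 8 were called higher and none lower, beside 12.0% and 16.8% of all genes. The median of these 74 genes was 0.37. Their 3 highest were Atp5g2 (0.95), Cox4i1 (0.81) and Atp5e (0.73). For the members the sum was 2922 ± 38.1 CPM at time 0, 2856 ± 20.9 after 12 and 3459 ± 63.5 after 24 hours, or 116.9%, 117.3% and 120.8% of the mean at time 0 in the libraries of 24 hours.

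**Figure D4:**
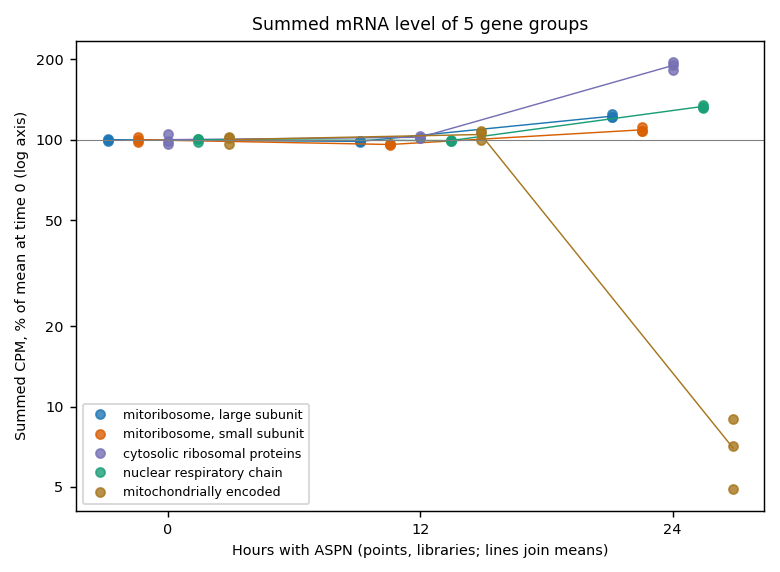
Summed CPM of 5 gene groups in each library, as a percentage of the group's mean at time 0 (log axis), against hours with ASPN; points are libraries and lines join the means of 3. At 24 hours the mitochondrially encoded genes lie between 4.90% and 8.97%, the cytosolic ribosomal proteins between 182% and 195%, and the small subunit of the mitochondrial ribosome between 107% and 112%. CPM are scaled with TMM factors. As a share of all counts, the small subunit was lower in every library of 24 hours than in those of time 0.

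Many members share a start region with a gene on the other strand. Within 1000 bp, 33 members had such a neighbor in 32 pairs (Mrpl46 and Mrps11 form a pair between them), and both genes of 29 pairs were tested. At 24 hours 16 of these pairs had fold changes of the same sign and 13 of opposite sign. Of the neighbors 5 were called higher and 8 lower, where 12.0% and 16.8% of all genes were, and they ranged from -1.66 to 0.97, a wider range than the members. The correlation between member and neighbor over the 29 pairs was r = 0.24, a description of pairs from the same libraries.

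For 12 pairs the starts lay within 100 bp. Mrps18b starts 45 bp from Ppp1r10, which encodes a regulatory subunit of protein phosphatase 1. Ppp1r10 fell from 91.5, 95 and 92.9 CPM at time 0 to 31.9, 33.2 and 30.0 CPM at 24 hours (-1.55, edgeR adjusted p = 4.0e-11), while Mrps18b was at 0.30; an antisense transcript, Gm16279, shares 30.5% of the exonic bases of Mrps18b. Their log2 ratio within a library went from -1.98 ± 0.14 to -0.13 ± 0.09 (SD, n = 3; exact permutation test, two-sided p = 0.10, the smallest p that 3 against 3 libraries allow). Mrpl49 starts 59 bp from Fau, whose product holds a protein of the cytosolic small subunit. Fau rose by 0.97 and Mrpl49 was at 0.22, and their log2 ratio changed from -4.22 ± 0.15 to -4.97 ± 0.07. Mrps34 starts 29 bp from Eme2, which fell by 1.66 against -0.15 for Mrps34. In contrast Mrpl36 and Ndufs6, a complex I gene that starts 29 bp away, were at -0.05 and -0.07, and their ratio differed by 0.02 with overlap.

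Another 3 pairs were picked after their values were seen. Mrpl43 was at 0.27 and Twnk, the gene of the mitochondrial DNA helicase, fell by 1.10, from 59.3, 58.2 and 54.9 to 26.0, 27.6 and 26.6 CPM. The 2 genes share 507 bp of exon on opposite strands, 33.4% of Mrpl43, and since the strand setting of the counting is not given in the sources used here, reads in that stretch cannot be assigned with certainty. Mrps12, the lowest member, starts 172 bp from Sars2, the mitochondrial seryl-tRNA synthetase, which was at 0.38 (-0.44 for Mrps12). Mrpl46 and Mrps11 were at -0.15 and 0.26. Overlaps of exons affect 22 members with a protein-coding partner, among them Mrps25 (69.8% of its exonic bases, with Nr2c2), Mrps34 (63.4%, with Mapk8ip3, and 37% with Nme3 on its own strand, where no strand setting could separate the reads), Mrpl19 (36%, with Gcfc2) and Mrpl24 (26.3%, with Rrnad1).

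**Figure D5:**
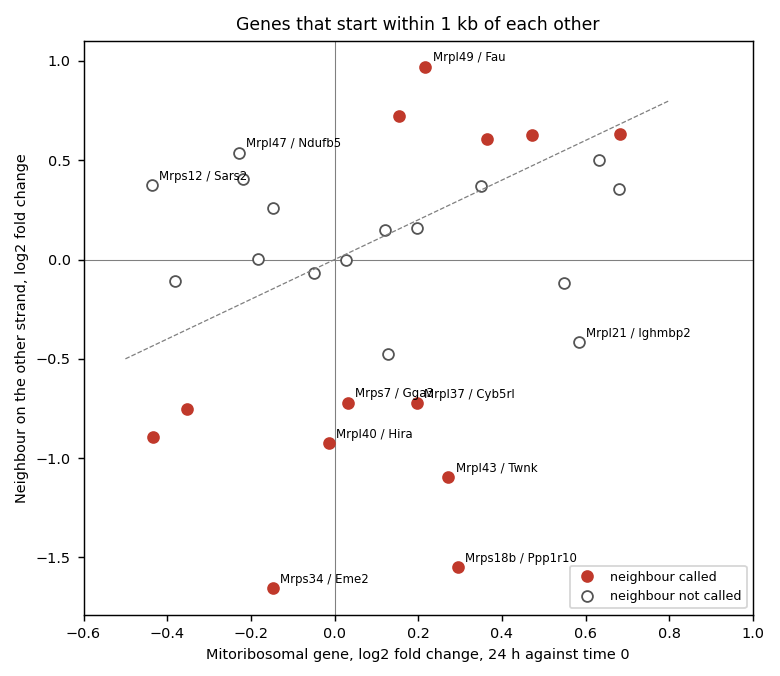
Log2 fold change at 24 hours of a member (x axis) and of the gene that starts within 1 kb on the other strand (y axis) for 29 pairs, with called neighbors in red and the line of equal change dashed. Neighbors spread from -1.66 (Eme2) to 0.97 (Fau), and 13 pairs lie in the quadrants of opposite sign.

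Promoter windows of 300 bases, 250 before to 50 after the start, were given by RefSeq (GRCm38.p6) for 68 members and 12001 genes of the table. In these windows 5 short motifs were searched on both strands. The ETS core CCGGAAG was in 33.8% of member windows and 16.1% of all windows, the YY1 motif AAGATGGCG in 11.8% and 2.7%, and the NRF1 letters GCATGCGC in 11.8% and 4.7%. The SP1 motif GGGCGG was in 34 of 68 member windows and 59.0% of all windows and the E-box CACGTG, which MYC and related factors bind, in 7.4% and 9.3%. In the 250 upstream bases alone the shares were 22.1% and 12.4% for ETS, 2.9% and 1.0% for YY1, 11.8% and 4.0% for NRF1, 48.5% and 54.4% for SP1, and 7.4% and 7.7% for the E-box. Members with and without a motif in the 300 bases had median log2 fold changes at 24 hours of 0.28 and 0.15 for NRF1 (8 with it), 0.23 and 0.12 for ETS (23), 0.20 and 0.15 for YY1 (8), 0.15 and 0.18 for SP1 (34) and 0.12 and 0.17 for the E-box (5). These differences were not tested.

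To show how unlike the promoters of the extremes and of a divergent pair are, the 250 bases upstream of the RefSeq start follow for Mrpl33 and Mrpl45 (the highest members), Mrpl22 and Mrps12 (among the 3 lowest) and Mrps18b, with matches to the 5 motifs in capitals, on GRCm38.p6. They are Mrpl33 at chr5:31613701-31613950 (plus strand), Mrpl45 at chr11:97315466-97315715 (plus), Mrps18b at chr17:35916441-35916690 (minus), Mrpl22 at chr11:58171414-58171663 (plus) and Mrps12 at chr7:28741822-28742071 (minus). The RefSeq start of Mrpl33 lies 17016 bp from the outermost start of the gene in GENCODE.
Mrpl33: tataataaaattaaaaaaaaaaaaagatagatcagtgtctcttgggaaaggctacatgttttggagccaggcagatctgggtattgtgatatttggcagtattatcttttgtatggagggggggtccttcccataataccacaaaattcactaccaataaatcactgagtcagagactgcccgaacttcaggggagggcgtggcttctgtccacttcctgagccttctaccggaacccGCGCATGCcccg
Mrpl45: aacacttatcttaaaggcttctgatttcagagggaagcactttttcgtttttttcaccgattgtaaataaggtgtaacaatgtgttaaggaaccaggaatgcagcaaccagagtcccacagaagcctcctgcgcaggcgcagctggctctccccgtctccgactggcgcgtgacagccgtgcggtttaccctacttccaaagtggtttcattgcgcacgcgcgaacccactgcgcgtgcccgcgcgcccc
Mrps18b: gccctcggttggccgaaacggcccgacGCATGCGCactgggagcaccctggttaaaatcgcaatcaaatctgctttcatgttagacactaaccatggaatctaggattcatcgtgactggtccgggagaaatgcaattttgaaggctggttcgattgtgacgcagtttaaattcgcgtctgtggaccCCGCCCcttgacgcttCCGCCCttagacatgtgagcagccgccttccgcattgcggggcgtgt
Mrpl22: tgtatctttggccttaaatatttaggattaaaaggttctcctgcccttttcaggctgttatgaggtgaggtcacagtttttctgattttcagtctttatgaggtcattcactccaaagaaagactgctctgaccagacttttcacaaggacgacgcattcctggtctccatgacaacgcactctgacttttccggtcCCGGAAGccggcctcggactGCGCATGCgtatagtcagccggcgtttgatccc
Mrps12: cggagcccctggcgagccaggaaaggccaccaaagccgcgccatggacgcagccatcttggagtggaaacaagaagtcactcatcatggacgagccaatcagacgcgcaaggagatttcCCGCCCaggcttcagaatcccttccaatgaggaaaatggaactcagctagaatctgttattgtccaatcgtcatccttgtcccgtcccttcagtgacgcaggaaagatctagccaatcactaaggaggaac
Mrpl33 and Mrpl22, which stood at opposite ends at 24 hours, both hold the NRF1 letters, 12 to 5 and 33 to 26 bases before the start. Mrpl22 also holds the ETS core, 53 to 47 bases before the start, and the whole 300-base windows of Mrpl33, Mrps12 and Mrps18b hold it as well. Mrpl45 holds none of the 5 motifs in this stretch. The stretch of Mrps18b holds the NRF1 letters and 2 SP1 matches. A match is only a run of letters and does not show that a factor was bound.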

How the data were processed

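Paired-end reads of TruSeq mRNA libraries were trimmed and mapped to GRCm38 by the authors (STAR, featureCounts), and the deposited values are raw gene counts of 15384 genes, with no normalization. How the genes were chosen and the strand setting are not given in the sources used here. Depth was 41881191 to 52993821 counts per library.

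Here genes were filtered with filterByExpr and scaled with TMM, and each comparison was fitted on its 6 libraries over all genes with edgeR 4.0.16 (quasi-likelihood test, Benjamini-Hochberg adjustment) in R 4.3.3. Genes were called at 1.5-fold or more with an adjusted p of at most 0.05. DESeq2 1.42.0, limma 3.58.1, other scaling, filters, a replicate block, a length and GC correction and leaving out libraries were alternatives. On simulated counts with 200 changed of 11165 genes, the 24-hour step called 100% of the changed genes and 0 unchanged ones. The planted changes were well above 1.5-fold, with as many up as down. The simulation therefore does not test calls near 1.5-fold or the scaling under the broad shift at 24 hours. No pair of replicates was as alike as sampling alone allows (chi-square 3.13 to 15.4 per degree of freedom); p-values measure the spread between these libraries, labelled biological replicates of 1 cell line.

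Named genes are the called members, the 3 highest and 3 lowest per comparison, the 5 highest and 3 lowest levels at time 0, the Mrps18 paralogs, the proteins with other names, and called genes (or extremes) of the other lists; values of further genes were added after they were seen. Lengths, GC and overlaps come from GENCODE M21, in which all 77 members were found, and promoters from RefSeq. The members and lists were chosen with earlier results of these data known. A result on 1 marker gene is not reported here.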

Additional observations from a re-analysis of the deposited data

Results flagged for a closer look

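The changes of a member at 12 and at 24 hours against the shared time 0 differ by its change from 12 to 24 hours, which was tested directly. For 8 members this difference passed the adjusted p of 0.05 and 1.5-fold by edgeR: Mrpl33 (log2 fold change from 12 to 24 hours 0.72), Mrpl48 (0.72), Mrpl32 (0.71), Mrpl45 (0.67), Mrpl9 (0.64), Mrpl14 (0.60), Mrpl23 (0.60) and Mrpl21 (0.59). They are 10.4% of the members, and 10.4% of all genes were called higher in this comparison. All are large-subunit genes. With total counts none of these calls was kept, the fit of all 9 libraries lost Mrpl14, Mrpl21 and Mrpl23, and the length and GC correction lost Mrpl14, Mrpl21 and Mrpl9. At 12 hours against time 0 they had log2 fold changes of 0.25 (Mrpl33), -0.02 (Mrpl48), -0.00 (Mrpl32), 0.05 (Mrpl45), -0.05 (Mrpl9), 0.05 (Mrpl14), 0.02 (Mrpl23) and 0.01 (Mrpl21). Whether a member changed more from 12 to 24 hours than from 0 to 12 hours was not tested. With 3 libraries per time no outlier test was made.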

How the results depend on the processing

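At 12 hours no member was called under any fold-based alternative; by adjusted p alone 2 were higher and 1 lower. At 24 hours against time 0, adjusted p alone gave 42 higher and 11 lower; total counts gave 1 higher, 4 lower and a median of -0.024; the length and GC correction gave 3 lower, with or without the replicate block, and medians of 0.077 and 0.078; upper-quartile factors gave a median of 0.23. At 24 against 12 hours, adjusted p alone gave 55 higher and 8 lower, total counts 0 higher and a median of 0.055, 1 fit of all 9 libraries 5 higher, and the length and GC correction 2 lower and a median of 0.14, with or without the replicate block. Without 1 library, the counts called higher were 8 to 10 (24 against 0) and 6 to 8 (24 against 12), none was called lower, and the medians were -0.04 to -0.03 (12 against 0), 0.18 to 0.22 (24 against 0) and 0.23 to 0.26 (24 against 12). At 12 hours, leaving out a library moved Mrps18a between -0.064 and 0.038, Mrps18b between -0.023 and 0.090 and Mrps18c between -0.10 and 0.020. With total counts Mrps18c was at -0.10 (24 against 0) and -0.044 (24 against 12), Ptcd3 at -0.16 and Aurkaip1 at -0.043; with the length and GC correction Ptcd3 was at -0.056, also with the replicate block. The cause was not tested.

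Same-numbered libraries did not deviate together (mean correlations -0.025, -0.063 and 0.017), and the main fit used no block. The labels do not say whether same-numbered libraries were prepared together, which these correlations cannot exclude. With the replicate block 8 members were called higher at 24 against 0 and 8 at 24 against 12 hours, 0 at 12 against 0 and 0 lower, and the medians were -0.03, 0.20 and 0.28. Depth did not keep members out of a test, since all 77 passed the filter on low counts in each comparison.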
